A study of Mus musculus with 4 samples.

Results

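The culture medium of these cells contained 4 growth factors, and the genes described here encode the receptors for them: Lifr and Il6st for leukemia inhibitory factor (LIF), Gfra1 and Ret for glial cell line-derived neurotrophic factor (GDNF), Fgfr1, Fgfr2, Fgfr3 and Fgfr4 for basic fibroblast growth factor (bFGF), and Egfr and Erbb2 for epidermal growth factor (EGF). They were taken by symbol from the deposited table, where all 10 were found among 55401 genes. The 4 libraries came from mouse cells of the C57BL/6 strain that the labels call female germline stem cells from the ovary. In 2 of them the culture had received the solvent DMSO and in 2 daidzein, a soy isoflavone, at a dose and for a time not given in the sources used here. Both groups grew in the same medium, with 10% serum, 10 ng/mL LIF, 40 ng/mL GDNF, 10 ng/mL bFGF and 20 ng/mL EGF. No label states that the replicates are separate cultures; the p-values here therefore reflect the spread among these 4 libraries alone, and that spread may be technical.

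LIF binds the chain encoded by Lifr, which pairs with gp130, the product of Il6st, and the pair signals through JAK kinases and STAT transcription factors. GDNF is held by the co-receptor Gfra1, which has no kinase of its own and presents it to the receptor tyrosine kinase Ret. bFGF acts on the FGF receptor tyrosine kinases together with heparan sulfate, and EGF on Egfr, which can pair with Erbb2, a kinase with no known ligand of its own. LIF is best known for sustaining mouse pluripotent stem cells, and GDNF and bFGF for sustaining germline stem cells in culture.

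Library totals ran from 16230400 to 18537134 counted reads, 69079236 in all. A gene with 0 reads over the 4 libraries together is taken as having at most 3 counts, or 0.0434 CPM (reads scaled to the library total), a limit for counting error only. Of 21897 protein-coding genes, 38.1% had 0 reads in every library. Of 1410 olfactory receptor genes, taken as a gauge of stray reads, 97.5% had 0 and 5 had more than 12 in total, while 12 common reference genes such as Actb and Hprt had between 235 and 58908 reads per library. The labelled cell type was checked against its markers. Of 12 germ cell markers, 11 had 3 reads or fewer in at least 1 library and Pou5f1, Dppa3, Nanos2 and Figla had 0 in all, with only Zbtb16, at 67 to 93 reads, above that. All 4 pan-blood markers were abundant, at a summed 427 to 442 FPKM (reads scaled to exon length and library total), against 0.977 to 1.55 FPKM for the germ cell markers. The 8 mast cell markers summed to 779 to 824 FPKM, although Fcer1a, Tpsb2 and Mcpt4 had 0 reads in all libraries. The 5 macrophage markers summed to 38.9 to 43.7 FPKM, with Cd14 at 0 reads. Ovarian somatic and stromal markers summed to 0.805 to 1.24 FPKM, epithelial to at most 0.353 and endothelial to at most 0.454. All levels below belong to libraries with this make-up. In bulk RNA, fewer cells of a type and less RNA per cell cannot be told apart.

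Of the 10 receptor genes, 5 had 0 reads in all 4 libraries: Lifr, Gfra1, Fgfr2, Egfr and Erbb2. Another 2, Fgfr1 and Fgfr4, had 3 reads or fewer in at least 1 library. The remaining 3, Il6st, Fgfr3 and Ret, had over 3 reads in every library, and none of the 10 reached 1 FPKM in any library. The 10 genes together summed to between 0.945 and 1.27 FPKM per library. For comparison, 38.1% of all protein-coding genes had 0 reads in every library. The share at 0 was 39.7% among 58 listed receptor tyrosine kinases and 23.8% among 42 listed cytokine receptor chains. Over 3 reads in every library were found for 24.1% and 59.5% of these 2 lists. The median mean level of protein-coding genes with a read was 4.04 FPKM.

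**Figure D1:**
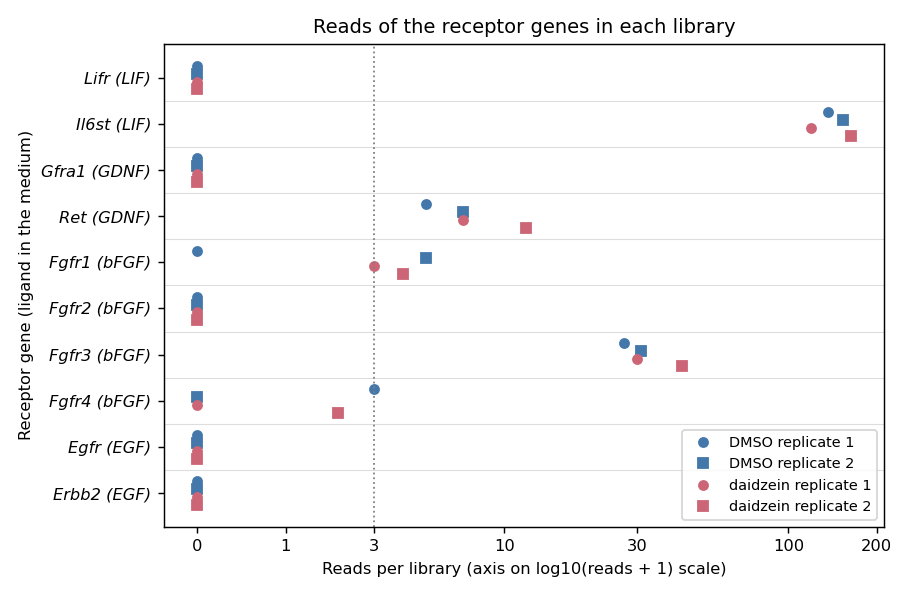
Reads of the 10 receptor genes in each of the 4 libraries, on a log10(reads + 1) axis, with blue for DMSO, red for daidzein, circles for replicate 1 and squares for replicate 2; the dotted line marks 3 reads. Lifr, Gfra1, Fgfr2, Egfr and Erbb2 sit at 0 in every library, and only Il6st exceeds 100 reads.

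For LIF, one chain was detected and the other was not. Il6st (ENSMUSG00000021756; GRCm38 chromosome 13, 112464070 to 112510086, plus strand, protein-coding) had 136 and 154 reads with DMSO and 119 and 164 with daidzein. Per length these were levels of 0.755 and 0.810 FPKM with DMSO and 0.624 and 0.797 FPKM with daidzein. Daidzein replicate 1 had the lowest level and daidzein replicate 2 lay between the DMSO libraries, so the groups overlapped. Lifr (ENSMUSG00000054263; GRCm38 chromosome 15, 7090614 to 7197489, plus strand, protein-coding) had 0 reads in each of the 4 libraries, which allows a level of up to 0.00403 FPKM. Per length Lifr was therefore at least 185-fold lower than Il6st. Il6st is shared by receptors of several cytokines. Among the other chains that can pair with it, Osmr and Il27ra had 0 reads in every library, Cntfr had at most 4, Il6ra had 6 to 12 and Il11ra1 had 7 to 15. Il6st stood 20th of 42 listed cytokine receptor chains by mean FPKM.

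The start regions of this pair are shown because one gene of the pair has reads and the other has none. Each window holds 250 bases before and 50 after the start that RefSeq gives on GRCm38.p6, both on the plus strand and written 5′ to 3′, at chr13:112463820-112464119 for Il6st and chr15:7129322-7129621 for the first of 2 Lifr starts. The Il6st window spans the start of that gene in the deposited table, 112464070. The 2 Lifr windows lie inside the span of that gene, and its start in the deposited table, 7090614, has no window. Capitals mark CG dinucleotides.
Il6st: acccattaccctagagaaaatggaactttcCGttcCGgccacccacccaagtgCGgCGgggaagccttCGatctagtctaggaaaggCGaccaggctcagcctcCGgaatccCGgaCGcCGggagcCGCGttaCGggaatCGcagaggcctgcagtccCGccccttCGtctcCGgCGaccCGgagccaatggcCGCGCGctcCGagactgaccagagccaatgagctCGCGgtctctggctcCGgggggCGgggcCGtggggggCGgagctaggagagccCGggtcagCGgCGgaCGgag
Lifr: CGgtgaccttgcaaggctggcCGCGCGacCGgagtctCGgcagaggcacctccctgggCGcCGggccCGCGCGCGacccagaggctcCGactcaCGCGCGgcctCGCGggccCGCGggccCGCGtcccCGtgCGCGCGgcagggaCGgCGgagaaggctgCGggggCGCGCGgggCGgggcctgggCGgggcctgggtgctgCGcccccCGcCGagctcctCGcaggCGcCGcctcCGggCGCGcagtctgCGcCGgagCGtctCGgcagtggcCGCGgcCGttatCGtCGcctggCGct
The Il6st window held 33 CG dinucleotides, more than in 91.4% of 32851 such windows. The Lifr window held 53, more than in 99.5% of them, and the second Lifr start, at chr15:7140292-7140591, held 4. The median window held 7. The Il6st start and the first Lifr start are rich in CG, while the second Lifr start lies below the median. Whether the CG count bears on the reads of a gene was not tested. The motif TTCNNNGAA, a palindrome that STAT factors are known to bind, was searched on both strands. It was found in 0 of the 10 windows of the 8 receptor genes with an entry (Ret and Fgfr1 have none), against 8.30% of all windows. With only 10 windows, a count of 0 cannot be told apart from that share. Fgfr4 held 20 CG dinucleotides, Egfr 15, Erbb2 21, Gfra1 12, Fgfr2 4 and the 2 Fgfr3 starts 26 and 30.

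For GDNF, the kinase was near the limit of detection and the co-receptor was not detected. Ret (ENSMUSG00000030110; GRCm38 chromosome 6, 118151745 to 118197718, minus strand, protein-coding) had 5 and 7 reads with DMSO and 7 and 12 with daidzein, or 0.0456 and 0.0605 FPKM against 0.0602 and 0.0957 FPKM. Daidzein replicate 2 was the highest, and the other 3 libraries overlapped. Gfra1 (ENSMUSG00000025089; GRCm38 chromosome 19, 58235604 to 58455909, minus strand, protein-coding) had 0 reads in all 4 libraries, which allows up to 0.00793 FPKM. That limit lay 8.37-fold below the pooled Ret level per length, with the 31 reads of Ret taken as exact. Among the other co-receptors of the family, Gfra3, Gfra4 and Gfral had 0 reads throughout. Gfra2, the co-receptor for neurturin, had 5 and 0 reads with DMSO and 0 and 2 with daidzein, a pooled 0.0286 FPKM that lay above the limit for Gfra1. Ncam1, an adhesion molecule that can also bind GDNF with Gfra1, had at most 4 reads per library.

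For bFGF, Fgfr3 was the receptor gene with most reads. Fgfr3 (ENSMUSG00000054252; GRCm38 chromosome 5, 33721674 to 33737068, plus strand, protein-coding) had 27 and 31 reads with DMSO and 30 and 43 with daidzein, or 0.232 and 0.253 FPKM against 0.244 and 0.324 FPKM. Daidzein replicate 2 was the highest and daidzein replicate 1 lay between the DMSO libraries. Fgfr1 (ENSMUSG00000031565; GRCm38 chromosome 8, 25513654 to 25575718, plus strand, protein-coding), the kinase through which bFGF acts in many stem cell cultures, had 0 and 5 reads with DMSO and 3 and 4 with daidzein. Fgfr4 (ENSMUSG00000005320; GRCm38 chromosome 13, 55152640 to 55168759, plus strand, protein-coding) had 3 and 0 reads with DMSO and 0 and 2 with daidzein. Fgfr2 (ENSMUSG00000030849; GRCm38 chromosome 7, 130162451 to 133123350, minus strand, protein-coding) had no reads in the 4 libraries, so its level was at most 0.00420 FPKM. The totals of 12 reads for Fgfr1 and 5 for Fgfr4 lie in a range that many genes share, since 11.3% of protein-coding genes had 1 to 12 reads in total. Of the 1410 olfactory receptor genes, 12 had at least 5 reads.

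Per length, Fgfr3 was 15.1-fold above Fgfr1 (95% exact binomial interval 8.34 to 29.9, counting error only), 13.0-fold above Fgfr4 (5.42 to 40.6) and at least 63.0-fold above Fgfr2. Fgfrl1, an FGF receptor that lacks the kinase domain, was singled out after its values were seen. It had 295 to 425 reads per library, 26.9-fold more than Fgfr3 per length (22.4 to 32.4).

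For EGF, neither gene was detected. Egfr (ENSMUSG00000020122; GRCm38 chromosome 11, 16752203 to 16918158, plus strand, protein-coding) had 0 reads in each library, which allows up to 0.00383 FPKM. Erbb2 (ENSMUSG00000062312; GRCm38 chromosome 11, 98412470 to 98437716, plus strand, protein-coding) had 0 reads in each, which allows up to 0.00834 FPKM. Of the remaining members of the family, Erbb4 had 0 reads in every library. Erbb3 had 0 and 1 with DMSO and 2 and 2 with daidzein, a pooled 0.0120 FPKM (95% Poisson interval 0.00391 to 0.0281, counting error only). A difference between the groups in Lifr, Gfra1, Fgfr2, Egfr or Erbb2 was not detectable at this depth.

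Ranked by level per length, the order was Il6st, Fgfr3, Ret, then Fgfr4 and Fgfr1, then the 5 genes at 0. Il6st was above Fgfr3 by 2.82-fold (95% exact binomial interval 2.33 to 3.44, counting error only) and Fgfr3 above Ret by 3.99-fold (2.68 to 6.11). In both steps the lowest library of the higher gene lay above the highest library of the lower gene. Ret was above Fgfr4 by 3.25-fold (1.25 to 10.7), but the highest Fgfr4 library, at 0.0522 FPKM, lay above the lowest Ret library, so this step was within the spread of the libraries. Fgfr4 and Fgfr1 did not differ beyond counting error, at 1.16-fold with an interval of 0.321 to 3.54. Among 58 receptor tyrosine kinases Fgfr3 stood 11th and Ret 13th, and 23 of the 58 had 0 reads. The kinase gene with the highest level, Kit, the receptor for stem cell factor, had 10574 to 12205 reads per library and lay 274-fold above Fgfr3 per length (231 to 328). Csf2rb, the shared beta chain of the receptors for interleukin 3, interleukin 5 and GM-CSF, was the highest cytokine receptor chain, 132-fold above Il6st (122 to 144).

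**Figure D2:**
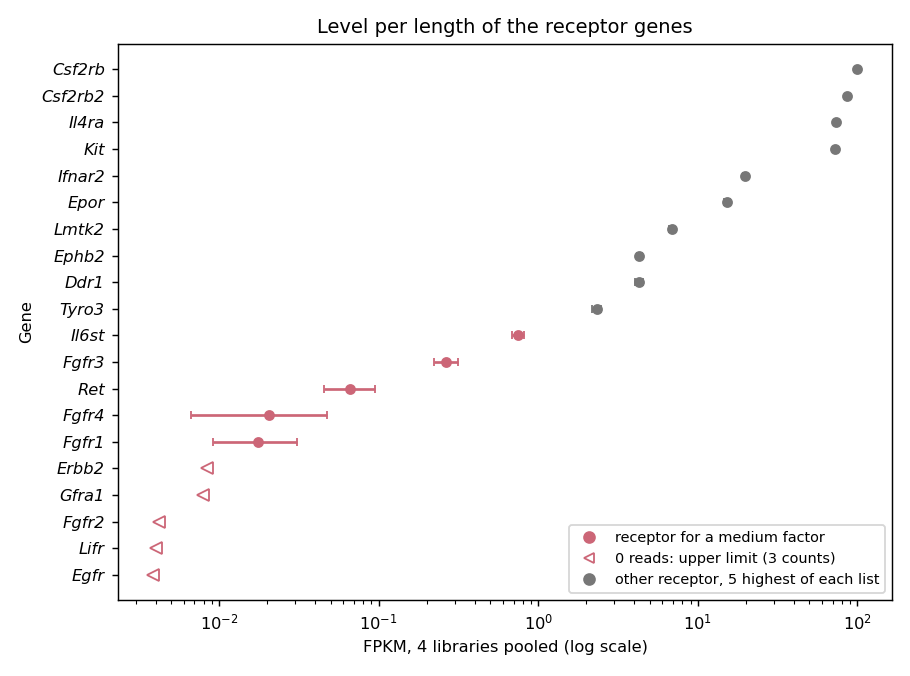
Level per length of the 10 receptor genes (red) and of the 5 other genes with the highest level in each of the lists of receptor tyrosine kinases and of cytokine receptor chains (grey), as FPKM over the 4 libraries pooled, on a log axis, with 95% Poisson intervals that cover counting error only. Open triangles are the upper limits of genes with 0 reads; Il6st, at 0.747 FPKM, is the highest of the 10 and lies below all 10 grey genes.

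The receptor genes closest to each detected gene in level were named by the smallest Euclidean distance of log2(FPKM + 1) over the 4 libraries, among 99 other listed receptors. For Il6st these were Insr, the insulin receptor, at a distance of 0.230, and Insrr at 0.460. For Fgfr3 they were Il20rb at 0.159 and Ltk at 0.245, and for Ret Ephb3 at 0.0798 and Il7r at 0.0826. Over 4 libraries this measure mainly reflects the mean level.

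How far these genes share sequence with other genes was checked on the GENCODE M21 models. Between 88.4% and 100% of the 50-base stretches in the transcripts of each of the 10 genes occur in no other gene's transcripts. The lowest share was that of Fgfr3, where 13.9% of exonic bases overlap G630022F23Rik on the opposite strand, a gene with 0 reads here. For Gfra1 7.60% of exonic bases overlap Gm16277, for Fgfr2 3.04% overlap Ctbp2, for Fgfr1 1.66% overlap Gm16159 and for Erbb2 0.173% overlap Mien1. Of these 5 neighbours Ctbp2, G630022F23Rik, Gm16277 and Gm16159 had 0 reads in every library, and Mien1 had 717 to 834. The strand setting is not given in the sources used here, so reads in the shared bases cannot be told apart. By these models most of each gene's exonic bases are its own. Whether reads were lost in alignment or counting was not tested. The annotated span of Fgfr2, 2960900 bases, overlaps 70 other genes, of which Ctbp2 shares exonic bases with it.

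The effect of daidzein could be tested for 2 of the 10 genes, Il6st and Fgfr3, since the other 8 fell below the filter on low counts. With edgeR (quasi-likelihood F test, Benjamini-Hochberg adjustment over all genes tested) neither passed an adjusted p of 0.05. Il6st went from 8.69 ± 0.390 CPM with DMSO to 7.88 ± 1.30 with daidzein (SD, n = 2 each), and daidzein libraries were at 0.909 times the DMSO level (95% interval 0.718 to 1.15, edgeR adjusted p of 1.00). Fgfr3 went from 1.74 ± 0.0950 to 2.03 ± 0.391 CPM (SD, n = 2 each), and daidzein libraries were at 1.17 times the DMSO level (95% interval 0.740 to 1.86, edgeR adjusted p of 1.00). The groups overlapped for both. The intervals leave room for a fall of Il6st to 0.718 of its DMSO level and for a rise of Fgfr3 by 1.86-fold. Neither had an unadjusted p under 0.05, which 2.91% of all genes tested had, and DESeq2 and limma also called 0 of the 2. Of all 11700 genes tested, 0.0171% passed by edgeR, which is 2 genes, and the groups did not overlap for 29.7% of tested genes.

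The log2 difference of Il6st, -0.14, was 0.02 without daidzein replicate 1 and -0.32 without daidzein replicate 2. That of Fgfr3, 0.23, was 0.02 without daidzein replicate 2 and 0.41 without daidzein replicate 1. For Ret the pooled reads were 12 with DMSO and 19 with daidzein, a ratio per depth of 1.48 (exact binomial interval 0.681 to 3.34, counting error only). For Fgfr1 they were 5 and 7, a ratio of 1.31 (0.357 to 5.22), which became 0.671 without DMSO replicate 1. Both intervals include 1. Fgfr4, with 3 and 2 pooled reads, was at or under the floor of 3 counts in both groups, and no ratio is given.

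**Figure D3:**
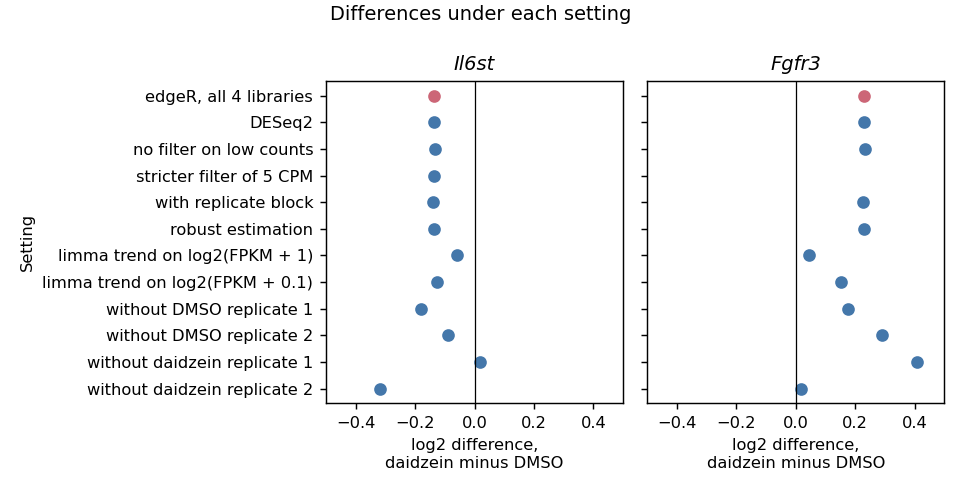
log2 difference between daidzein and DMSO of Il6st and Fgfr3 in the edgeR fit of all 4 libraries (red) and under each alternative (blue). Il6st moves between -0.32 and 0.02 and Fgfr3 between 0.02 and 0.41, and the ends of each range come from leaving out a daidzein library. Fgfr3 fell below the 5 CPM filter and has no point there.

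The genes that act with or downstream of these receptors were counted by list. Of 19 listed genes of LIF and gp130 signalling, 16 had over 3 reads in every library. Pim1, a kinase gene that STATs induce, had the highest mean level at 48.3 FPKM, followed by Stat5b at 34.0, Stat5a at 31.6, Jak1 at 20.7 and the phosphatase gene Ptpn11 at 19.9 FPKM. Many of these genes also serve other cytokine receptors. By edgeR 15 were tested, 5 higher and 10 lower with daidzein, 0 passed, and 0 had an unadjusted p under 0.05, against 2.91% of all genes tested. The median log2 difference was -0.03, against -0.0027 over all genes tested. Pim1 had a fold of 0.933 (95% interval 0.851 to 1.02) and Socs3, a feedback inhibitor of gp130, of 0.871 (0.721 to 1.05).

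Of 19 listed genes of GDNF and RET signalling, 7 had over 3 reads in every library and 9 had 0 in all. Those with 0 include the transcription factor genes Bcl6b and Lhx1, which GDNF is known to induce in germline stem cells of the testis. Etv5, another GDNF-responsive factor that also responds to FGF, had a mean of 14.2 FPKM, and the adaptor genes Dok2, Shc1, Dok1 and Dok4 had 14.0, 13.9, 10.1 and 3.87 FPKM. The 7 genes were tested, 5 higher and 2 lower, 0 passed by edgeR and 0 had an unadjusted p under 0.05. Etv5 had a fold of 1.08 (95% interval 0.968 to 1.20).

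Of 21 genes of FGF signalling found in the table, 17 had over 3 reads in every library. The adaptor gene Grb2 was highest at 123 FPKM, and Etv4 and Dusp6, which FGF and ERK signalling are known to induce, had 15.4 and 14.2 FPKM. On the same list Etv5 had 14.2 FPKM, while Spry1, Spry4, Spry2 and Il17rd were lower, at 5.50, 2.52, 0.507 and 0.0226 FPKM. The FGF co-receptor Kl had 0 reads and Klb at most 2. Of 17 tested, 10 were higher and 7 lower, 0 passed and 0 had an unadjusted p under 0.05, with a median log2 difference of 0.03. Spred3, an inhibitor of ERK signalling, had the smallest p, with a fold of 0.743 (95% interval 0.534 to 1.03). Of 21 heparan sulfate genes, 7 had over 3 reads in every library, all of them biosynthetic enzymes, led by Hs6st1 at 68.9 and Ndst2 at 51.6 FPKM. The listed proteoglycan cores, syndecans Sdc1 to Sdc4 and glypicans Gpc1 to Gpc6, had at most 9 reads in any library. Other proteoglycan cores were not on the list. Of the 7 tested, 3 were higher and 4 lower, 0 passed and 1, Hs2st1, had an unadjusted p under 0.05, against 2.91% of all genes tested. Hs2st1, a heparan sulfate sulfotransferase gene, was at 1.16 times its DMSO level with daidzein (95% interval 1.03 to 1.29), and Ndst2 at 0.952 times (0.875 to 1.03).

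Of 13 genes of EGF and ErbB signalling, 9 had over 3 reads in every library. After Grb2 the highest were Adam10 at 18.6 FPKM, Shc1, Eps15 at 13.6 and Adam17 at 8.24 FPKM. Adam10 and Adam17 are proteases that release ErbB ligands among other substrates. Of the 9 tested, 6 were higher and 3 lower, and 0 passed or had an unadjusted p under 0.05. DESeq2 and limma also called 0 genes in each of these lists.

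**Figure D4:**
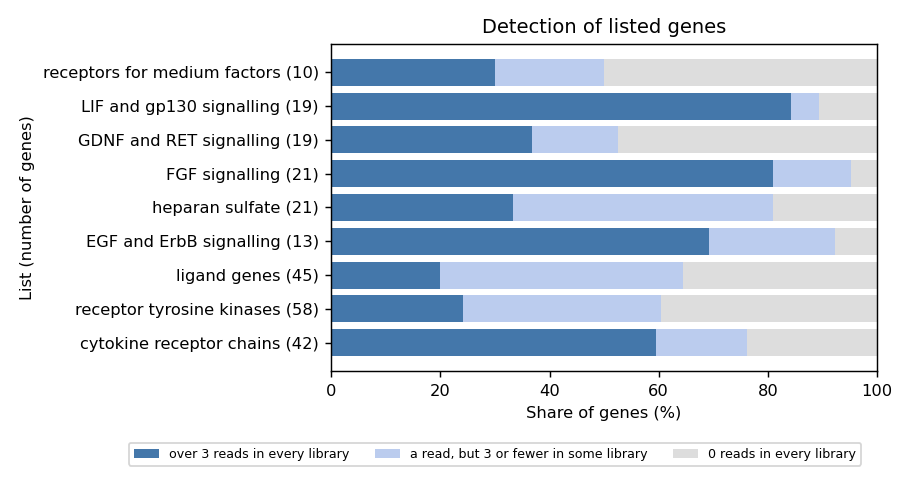
Share of genes in each list with over 3 reads in every library (dark blue), with a read but 3 or fewer in some library (light blue) and with 0 reads in every library (grey); the number of genes stands in brackets. The receptors for the medium factors have 50% at 0, the lists with a share nearest to that are GDNF and RET signalling at 47.4% and receptor tyrosine kinases at 39.7%, and the lowest share is that of FGF signalling at 4.76%.

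**Figure D5:**
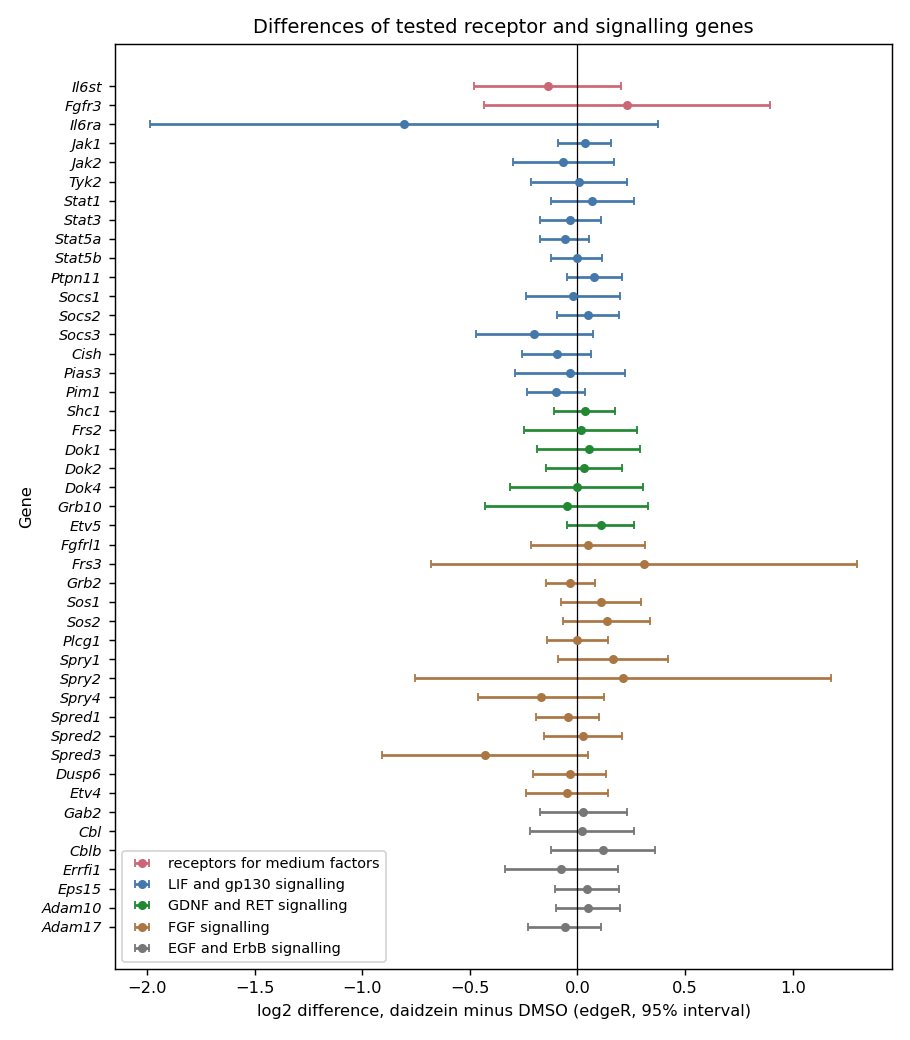
log2 difference between daidzein and DMSO with its 95% interval from edgeR for the receptor genes and signalling genes tested, coloured by list; a gene on several lists is drawn once, under the first, and the heparan sulfate and ligand lists are not drawn. Every interval drawn includes 0, those of Il6st and Fgfr3 included.

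The cells' own transcripts of the ligands were counted for the same 4 systems. Lif had 246 to 338 reads per library, a mean of 4.05 FPKM, while Lifr had 0, so Lif was at least 1003-fold above Lifr per length. Osm, which encodes oncostatin M, a cytokine that uses Il6st with Osmr, had 1175 to 1665 reads, and Il6 had 289 to 334. Gdnf had 0 reads in every library, Fgf2 had 0 to 7 and Egf 14 to 21, while Hbegf, a ligand of Egfr, had 110 to 146 and Nrtn, the ligand of Gfra2 with Ret, 16 to 22. Of 45 ligand genes, 16 had 0 reads in all libraries and 9 were tested. All 9 were lower with daidzein, as were 51.3% of all genes tested, from a fold of 0.471 for Fgf9 (95% interval 0.194 to 1.14) to 0.977 for Hbegf, with a median log2 difference of -0.23, 0 passing by edgeR and 1, Osm, with an unadjusted p under 0.05, against 2.91% of all genes tested. The 36 ligand genes below the filter on low counts were not tested, and not all of them were lower: Areg, an Egfr ligand, had 5 and 2 reads with DMSO and 9 and 9 with daidzein. Osm had a fold of 0.769 (0.677 to 0.872) and an edgeR adjusted p of 0.628. It passed in 4 of 11 alternatives, with an edgeR adjusted p of 0.00235 when no filter was used, 0.00493 with the replicate block, 4.19e-07 without DMSO replicate 2 and 0.0148 without daidzein replicate 2. In the other 7 the adjusted p ran from 0.440 to 1.00, and the log2 difference, -0.38, was -0.21 without DMSO replicate 1. Lif had a fold of 0.861 (0.717 to 1.03).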

How the data were processed

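RNA was sequenced in 4 libraries, 2 per group by title and treatment label, and the steps here bear on the receptor genes. Per the submitters' processing notes the tools were DESeq2, HTSeq 0.6.1 and HISAT2 2.0.1, listed without their roles, and the build was mm9, but 99.6% of 55141 genes matched by identifier have the same start in GENCODE M21 of GRCm38, so coordinates are given on GRCm38. The deposited values are read counts per gene, whole numbers with no normalization, beside FPKM that the authors computed. In 100% of 65326 values with a read, the deposited FPKM lay within 0.01 of the count divided by exonic length and library total, and FPKM was recomputed that way for more decimals.

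The test was edgeR 4.0.16 under R 4.3.3 on the counts (TMM, default filterByExpr, quasi-likelihood F test, adjusted p of 0.05 over 11700 genes, 95% intervals from that fit), after the steps had been tested on simulated data. CPM with an SD are TMM-normalized. Ratios between genes and of genes below the filter are of pooled reads, with exact binomial intervals. Where a gene had 0 reads, 3 counts served as its upper limit. This is below the upper end of a 95% Poisson interval, for Gfra1 0.00793 against 0.00975 FPKM. Ratios given as at least a value take the reads of the other gene as exact. Alternatives were DESeq2 1.42.0, limma 3.58.1 on log2 FPKM with a pseudocount of 1 or 0.1, other filters, robust estimation, the replicate number as a block and each library left out. The receptor genes, lists and naming rule (all 10 receptors; of each list the 5 highest by FPKM, co-receptors and medium ligands at 0 and the 2 smallest p; the 2 nearest receptors; overlapping genes) were chosen with earlier results of these data known. Further names were picked with their values in view. Spry3, 1 of 22 listed FGF signalling genes, was not analysed here. Libraries differed pairwise by more than sampling noise, with a chi-square per degree of freedom of 2.23 to 4.81 over genes with enough reads.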

Additional observations from a re-analysis of the deposited data

How the results depend on the processing

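The count of receptor genes changed, 0 of those tested, stayed 0 in all 11 alternatives, as did the counts for the LIF, GDNF, FGF, heparan sulfate, EGF, receptor tyrosine kinase and cytokine receptor lists. The count of receptor genes with over 3 reads in every library, 3, was 2 at a minimum of 10 reads, 0 at a minimum of 1 FPKM and 3 with any library left out. Among the ligand genes 1 passed, Osm, when no filter was used, with the replicate block, and without DMSO replicate 2 or daidzein replicate 2, so leaving out a library gave 0 to 1. Over the whole table the 2 genes became 1 by DESeq2, 11 without a filter, 1 with the 5 CPM filter, 27 with the replicate block, 0 by limma on FPKM with either pseudocount and 4 to 17 when 1 library was dropped (the single library left in its group is then taken to vary as the other group does); the cause was not tested. With the replicate block the log2 differences of Il6st and Fgfr3 were -0.14 and 0.22. Same-numbered libraries were not taken as pairs in the main fit, since no label ties them. Their deviations from the group means correlated at 0.09 over genes, in 2 pairs. Yet in the pairwise chi-square given above these 2 pairs were the closest, at 3.51 for replicate 1 and 2.23 for replicate 2. Libraries of the same group lay further apart, at 4.17 for DMSO and 4.38 for daidzein. The remaining cross-group pairs stood at 4.05 and 4.81. Whether same-numbered libraries belong together was not tested. The ratio of Ret ran from 1.13 to 1.80 and that of Fgfr1 from 0.671 to 1.44 with a library left out. Without DMSO replicate 2 the DMSO group had 0 reads of Fgfr1 and no ratio was computed. Depth limits the 5 receptors at 0 reads to an upper bound. The default filter on low counts left 8 of 10 untested; with no filter edgeR gave Ret an adjusted p of 0.976 and Fgfr1 and Fgfr4 0.995 each.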

Other observations

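Listed receptor genes other than those for the medium factors gave a wider range of levels. Igf1r, the receptor for insulin-like growth factor 1, had 0 reads in all 4 libraries, while Insr, the insulin receptor, had 135 to 168 reads and Insrr 81 to 126. Pdgfra had 1 to 10 reads per library, Pdgfrb at most 2, Met at most 1 and Csf1r at most 2. After Kit, the genes with the highest mean levels on the list of receptor tyrosine kinases were Lmtk2 at 6.83, Ephb2 at 4.29, Ddr1 at 4.29 and Tyro3 at 2.31 FPKM. After Csf2rb, the cytokine receptor chains with the highest levels were Csf2rb2 at 86.0, Il4ra at 73.3, Ifnar2 at 19.7 and Epor at 15.1 FPKM. Of 12 kinase genes tested 0 passed by edgeR, DESeq2 or limma and 1, Ephb6, had an unadjusted p under 0.05, against 2.91% of all genes tested, with a fold of 0.723 (95% interval 0.549 to 0.954). Of 24 cytokine receptor chains tested 0 passed by edgeR, DESeq2 or limma and 0 had an unadjusted p under 0.05.

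The exostosin genes Ext1 and Ext2, whose products form the enzyme that extends heparan sulfate chains, were far apart. This was noticed after the values were seen. Ext2 had 1537 to 1729 reads per library, a mean of 13.1 FPKM, while the 4 libraries together held 1 read of Ext1, in DMSO replicate 1.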
